A study of Mus musculus with 8 samples.

Results

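The genes described here encode the Hsp90 and Hsp70 chaperones, the J-domain proteins, the subunits of the CCT chaperonin and the Bag cochaperones of the mouse. They were picked by name from the deposited counts table: protein-coding genes whose symbol begins with Hsp90, Hspa followed by a digit, Hsph, Dnaj, Cct2 to Cct8 or Bag1 to Bag6, together with Tcp1 and without Hspa9. The rule found 76 genes among 55421 gene identifiers, and 69 of them had enough reads to be tested, among 14647 tested genes. The other 7, which were Cct6b, Cct8l1, Dnajb7, Dnajb8, Dnajc5b, Hspa12b and Hspa1l, had at most 1.05 CPM, the counts of a gene scaled to a common library size, in any library. The names take in more than the cytosol. At least 10 of the 76 encode proteins of the endoplasmic reticulum, such as Hspa5 and Hsp90b1. At least 5 encode mitochondrial proteins, such as Dnaja3. The rule also passed over 5 genes with a matching name, because they are annotated as something other than protein coding; 1 of them is the chaperonin subunit gene Cct6a, and the other 4 are pseudogenes.

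The cells were an E14 line of mouse embryonic stem cells (129/Ola) with the miR-290-295 cluster knocked out, a group of microRNAs abundant in these cells. Every group carries this deletion, so no library comes from unmodified cells. Cells grown on gelatin with serum and LIF were transfected at 5 nM with a siPOOL, a mixture of many short interfering RNAs against 1 target, and were harvested after 36 hours. The siPOOLs were directed against Tfap4 (siTfap4), Wiz (siWiz) and Zic2 (siZic2), which encode transcription regulators, and a negative control pool (siNeg) was transfected in the same way. Each of the 4 groups has 2 libraries, which the series design calls biological duplicates, made with a kit that reads the 3′ ends of polyadenylated RNA.

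Chaperones bind unfolded or partly folded proteins and use ATP to help them reach their shape. J-domain proteins deliver clients to Hsp70 and stimulate its ATPase, Bag proteins and Hsp110 proteins help Hsp70 to release nucleotide, Hsp90 matures kinases, steroid receptors and other clients, and the CCT ring folds actin, tubulin and further proteins in a closed chamber. Embryonic stem cells hold much of this machinery under ordinary culture, while heat, oxidants and misfolded protein raise a subset of it through the heat shock factor Hsf1.

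Library totals ran between 8326675 and 13788856 counts. Tfap4 had 12.03 and 15.7 CPM in the siTfap4 libraries, against 33.4 and 37.1 CPM in siNeg. Wiz had 16.8 and 19.7 CPM in siWiz, against 49.9 and 46.1 CPM in siNeg. Zic2 had 2.15 and 1.83 CPM in siZic2, against 4.49 and 2.21 CPM in siNeg, so the lower value of siNeg lay close to the siZic2 libraries. The summed level of 7 stem cell markers was 2299 to 2481 CPM in siTfap4, 2574 to 2849 CPM in siWiz, 2906 to 3093 CPM in siZic2 and 2733 to 2967 CPM in siNeg. Of these markers 1 rose and 1 fell in siTfap4 against siNeg by the test used below. Pou5f1 had 57.4 and 48.1 CPM in siTfap4, against 24.4 and 27.5 CPM in siNeg (log2 fold change 1.02, adjusted p = 0.0159 by edgeR), and Nanog had 77.6 and 178 CPM, against 399 and 314 CPM (-1.48, adjusted p = 0.0142 by edgeR). The 7 fibroblast markers together reached at most 11.7 CPM in any library, with 5 of them at 0 in both siTfap4 libraries and 3 of them at 0 in both siNeg libraries. The sums of 4 trophectoderm markers and of 5 primitive endoderm markers stayed at or below 7.76 CPM. The part of these differences in the results was not tested. In bulk RNA, fewer cells of a type and less RNA per cell cannot be told apart.

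In siTfap4 cells the chaperone genes split into a few that fell by 2-fold or more and a large rest that did not pass the test. Against siNeg, 10 of the 69 tested genes fell, 1 rose and 58 did not pass (edgeR quasi-likelihood test, Benjamini-Hochberg adjusted p under 0.05 over all tested genes). That is 15.9% of the chaperone genes, and 15.9% of all tested genes passed as well, 11.7% lower and 4.24% higher. The share of chaperone genes called was therefore the same as the background. The median log2 fold change of the chaperone genes was 0.04, against 0.01 over all tested genes, with a range of -3.00 to 1.51. The genes that fell were Hspa8, Hspa14 and Hspa1b among the Hsp70 genes, Dnaja1, Dnaja2, Dnaja3, Dnajc6 and Dnajc19 among the J-domain genes, the chaperonin gene Cct4 and the cochaperone gene Bag2. The gene that rose was Dnajb1. The count of called chaperone genes was 4 without the first siTfap4 library, 17 without the second and 5 without the first siNeg library. In siWiz and siZic2 against siNeg no chaperone gene passed this test. Nor did any of the 14647 tested genes, the targets Wiz and Zic2 included. These comparisons therefore do not show that the chaperone genes stayed unchanged.

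**Figure D1:**
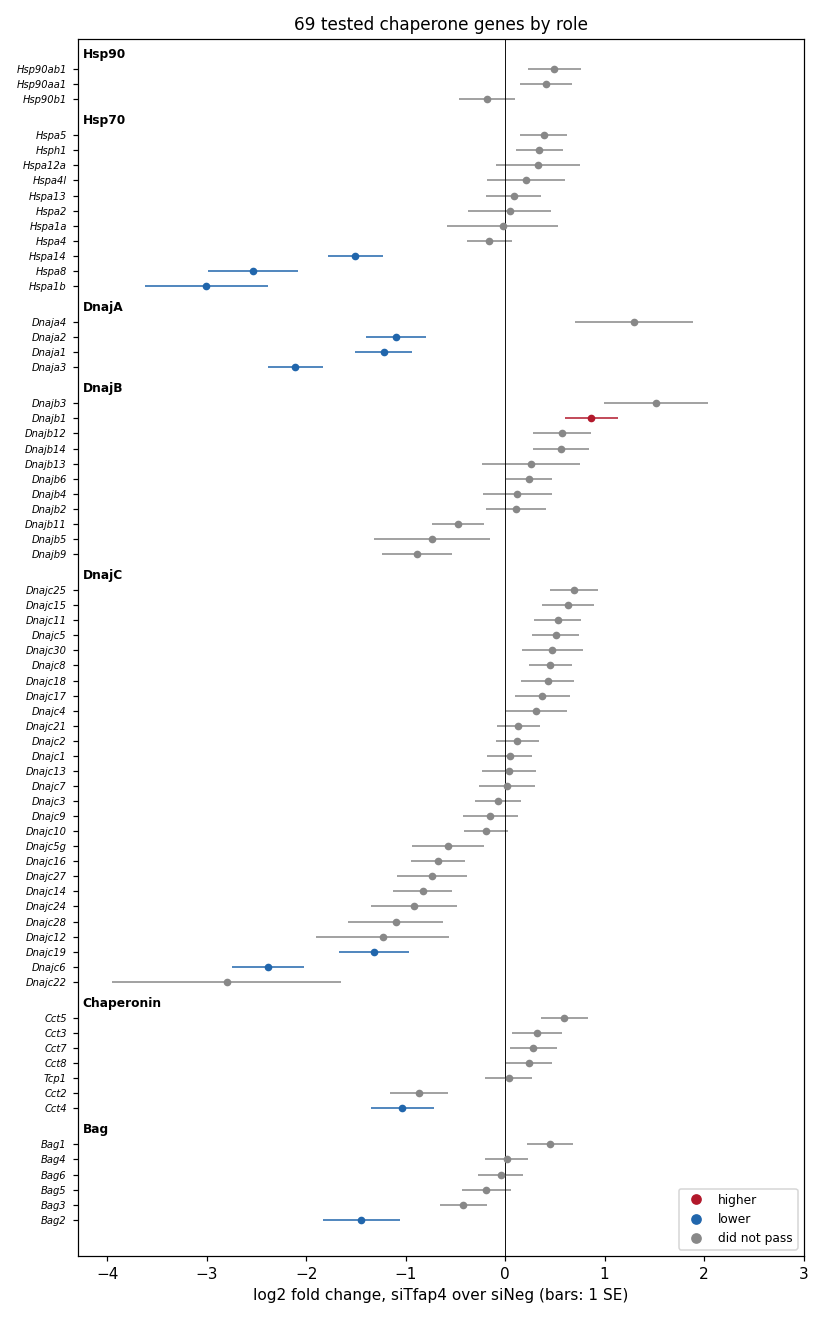
Log2 fold change of siTfap4 over siNeg for each of the 69 tested chaperone genes, grouped by role; points are fitted values and bars are 1 SE. Blue points fell, the red point rose and grey points did not pass; the 10 blue points lie between -3.00 and -1.03 and the red point, Dnajb1, lies at 0.87.

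The 2 cytosolic Hsp90 genes were the most abundant chaperone transcripts in every library, and neither passed the test. Hsp90ab1, the constitutive cytosolic form, had 13763 and 9496 CPM in siTfap4, 7466 and 7592 CPM in siWiz, 6882 and 7231 CPM in siZic2, and 7464 and 9080 CPM in siNeg. Both siTfap4 libraries lay above both siNeg libraries, but the second siTfap4 library did so by little. The log2 fold change of siTfap4 over siNeg was 0.49 (95% confidence interval -0.08 to 1.06, adjusted p = 0.219 by edgeR). Hsp90aa1, the stress-inducible form, had 7133 and 5479 CPM in siTfap4, 4793 and 4332 CPM in siWiz, 3824 and 4132 CPM in siZic2, and 4051 and 5423 CPM in siNeg. Its log2 fold change was 0.41 (95% confidence interval -0.15 to 0.97, adjusted p = 0.291 by edgeR). Hsp90b1, which encodes the Hsp90 of the endoplasmic reticulum, had 484 and 378 CPM in siTfap4, against 571 and 410 CPM in siNeg, and these ranges overlap. The 3 Hsp90 genes together took 2.07% and 1.48% of all counts in the siTfap4 libraries, against 1.28% and 1.44% in siNeg. Since the reads come from transcript ends, CPM was not divided by transcript length.

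Among the 11 tested Hsp70 genes, 3 fell in siTfap4 and 8 did not pass (27.3% lower, against 11.7% of all tested genes). Hspa14 encodes an Hsp70 that works with the J-domain protein Dnajc2 at the ribosome, where it meets new polypeptides. The gene lies at chr2:3488850-3512814 on the minus strand (GRCm38, ENSMUSG00000109865). Hspa14 had 37.3 and 60.5 CPM in siTfap4, 185 and 135 CPM in siWiz, 131 and 161 CPM in siZic2, and 128 and 150 CPM in siNeg. Both siTfap4 libraries were lower than all 6 others. The fall was 2.84-fold (log2 fold change -1.51 ± 0.28 SE, adjusted p = 0.00393 by edgeR). A second gene model, Gm45902, starts within Hspa14 on the same strand and ends elsewhere; it had 11.4 and 6.80 CPM in siTfap4, against 4.66 and 5.96 CPM in siNeg, and did not pass the test (adjusted p = 0.153 by edgeR). Dnajc2, the partner of Hspa14, had 286 and 339 CPM in siTfap4, against 288 and 287 CPM in siNeg, with a log2 fold change of 0.12 (95% confidence interval -0.35 to 0.59). A difference between the fold changes of the partners was not tested.

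Hspa1b and Hspa1a are neighbouring, nearly identical genes for the stress-inducible Hsp70, and both were scarce. Hspa1b (chr17:34956436-34959238, minus strand, GRCm38, ENSMUSG00000090877) had 0.50 and 1.41 CPM in siTfap4, 7.94 and 3.06 CPM in siWiz, 6.93 and 4.30 CPM in siZic2, and 10.2 and 5.29 CPM in siNeg. These CPM rest on 4 and 12 reads in siTfap4, against 123 and 55 reads in siNeg. The fall was 8.02-fold (log2 fold change -3.00 ± 0.62 SE, adjusted p = 0.00708 by edgeR). The call was lost without the first siTfap4 library (log2 fold change -2.47, adjusted p = 0.0822) and without the first siNeg library (-2.43, adjusted p = 0.0591). Hspa1a had 1.49 and 3.75 CPM in siTfap4, against 3.41 and 1.92 CPM in siNeg. Its log2 fold change was -0.03, with a 95% confidence interval of -1.22 to 1.17 that leaves a change of 2-fold in either direction undetected at this depth. The fold changes of the pair were not tested against each other.

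The 250 bases before the start of each of the pair are shown because the upstream sequence of these stress-inducible genes is nearly the same in both (RefSeq, GRCm38.p6, minus strand). Capitals mark GAANNTTC, a pair of the units that make up a heat shock element. Hspa1a lies downstream of chr17:34972157-34972406 and Hspa1b downstream of chr17:34959239-34959488.
Hspa1a: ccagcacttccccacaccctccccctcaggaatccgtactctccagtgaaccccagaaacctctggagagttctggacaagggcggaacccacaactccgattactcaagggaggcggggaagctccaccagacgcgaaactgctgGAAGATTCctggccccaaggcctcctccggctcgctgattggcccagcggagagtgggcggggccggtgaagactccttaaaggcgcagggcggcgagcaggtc
Hspa1b: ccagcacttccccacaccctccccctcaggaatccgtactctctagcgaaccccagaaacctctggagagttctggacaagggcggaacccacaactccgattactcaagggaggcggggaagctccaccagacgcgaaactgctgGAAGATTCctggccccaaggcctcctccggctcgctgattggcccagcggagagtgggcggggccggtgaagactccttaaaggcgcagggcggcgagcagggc
The same base stood at the same position in 98.8% of the 250 positions, and the longest run shared at the same place was 201 bases. Neither window held the full heat shock element, the pair extended by a further unit, which says only that these letters are not in these bases.

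Hspa8 encodes the constitutive cytosolic Hsp70, a housekeeping chaperone, and its count depends on how reads are placed. Hspa8 (chr9:40800984-40810087, plus strand, GRCm38, ENSMUSG00000015656) had 26.0 and 19.6 CPM in siTfap4, 293 and 78.8 CPM in siWiz, 187 and 223 CPM in siZic2, and 133 and 131 CPM in siNeg. Both siTfap4 libraries were lower than all others, and the siWiz libraries differed widely from each other. Counted alone, Hspa8 fell 5.79-fold (log2 fold change -2.53 ± 0.45 SE, adjusted p = 0.00322 by edgeR). However, 56.2% of the 50-base stretches in the last 300 bases of the Hspa8 transcript also occur in 9 annotated processed pseudogenes, so reads of this gene can be split among copies.

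One of these pseudogenes, Gm15459 (chr5:5781615-5783555, minus strand), had more counts than Hspa8 itself. Gm15459 had 665 and 751 CPM in siTfap4, 321 and 485 CPM in siWiz, 377 and 540 CPM in siZic2, and 510 and 534 CPM in siNeg. Its log2 fold change in siTfap4 was 0.44 ± 0.27 SE (adjusted p = 0.270 by edgeR). When Hspa8 and the 9 pseudogenes were counted as 1 gene, which was decided after the values were seen, the sum was 733 ± 56.5 CPM in siTfap4, 592 ± 36.2 CPM in siWiz, 666 ± 142 CPM in siZic2 and 656 ± 16.1 CPM in siNeg (SD, n = 2 each). The log2 fold change of the sum in siTfap4 was 0.16 (95% confidence interval -0.35 to 0.67, adjusted p = 0.672 by edgeR), so the fall of Hspa8 and its direction both depended on leaving the copies out.

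**Figure D2:**
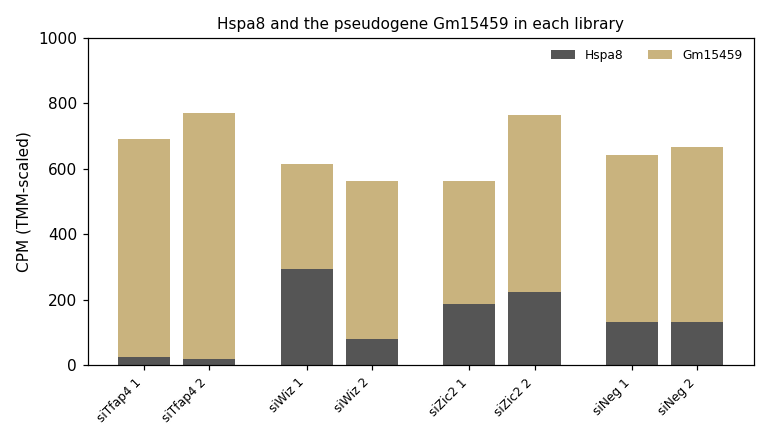
CPM of Hspa8 (dark) and of the processed pseudogene Gm15459 (light) stacked in each of the 8 libraries. The Hspa8 portion is smallest in the 2 siTfap4 libraries, at 26.0 and 19.6 CPM, while Gm15459 is largest there, at 665 and 751 CPM.

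The other Hsp70 genes did not pass. Hspa5, the Hsp70 of the endoplasmic reticulum, had 1315 and 1052 CPM in siTfap4, against 826 and 987 CPM in siNeg, without overlap (log2 fold change 0.38, 95% confidence interval -0.12 to 0.89). Hspa4, an Hsp110 protein that exchanges nucleotide on Hsp70, had 742 and 729 CPM in siTfap4, against 780 and 864 CPM in siNeg (log2 fold change -0.16, 95% confidence interval -0.65 to 0.33). Hsph1, a stress-inducible Hsp110, had 283 and 228 CPM in siTfap4, against 173 and 229 CPM in siNeg (log2 fold change 0.34, 95% confidence interval -0.17 to 0.85). The remaining tested Hsp70 genes, Hspa12a, Hspa13, Hspa2 and Hspa4l, had log2 fold changes between 0.04 and 0.33.

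Of the 42 tested J-domain genes, 5 fell in siTfap4, 1 rose and 36 did not pass. That is 11.9% lower and 2.38% higher, against 11.7% and 4.24% of all tested genes, so the share that fell was near the background. The DnajA class holds the general J-domain partners of Hsp70. Of its 4 genes 3 fell, and so small a class was not tested as a set. Dnaja3 encodes the mitochondrial member of the class and lies at chr16:4639989-4707695 on the plus strand (ENSMUSG00000004069). Dnaja3 had 11.7 and 18.9 CPM in siTfap4, 77.2 and 56.2 CPM in siWiz, 74.4 and 75.3 CPM in siZic2, and 63.9 and 68.2 CPM in siNeg. Both siTfap4 libraries lay below all the others, by more than the others spread among themselves. The fall was 4.32-fold (log2 fold change -2.11 ± 0.28 SE, adjusted p = 0.000742 by edgeR), the smallest adjusted p of the chaperone genes.

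Dnaja1 and Dnaja2 encode cytosolic J-domain proteins that work with Hspa8. Dnaja1 (chr4:40722150-40737149, plus strand, ENSMUSG00000028410) had 67.2 and 132 CPM in siTfap4, 217 and 228 CPM in siWiz, 204 and 233 CPM in siZic2, and 218 and 246 CPM in siNeg. Dnaja2 (chr8:85537633-85555344, minus strand, ENSMUSG00000031701) had 98.1 and 209 CPM in siTfap4, 306 and 313 CPM in siWiz, 297 and 344 CPM in siZic2, and 309 and 348 CPM in siNeg. In both genes the siTfap4 libraries lay below all the others, the first further than the second. Dnaja1 fell 2.33-fold (adjusted p = 0.0140 by edgeR) and Dnaja2 fell 2.14-fold (adjusted p = 0.0280 by edgeR). Without the first siTfap4 library the log2 fold changes were -0.82 for Dnaja1 (adjusted p = 0.104) and -0.66 for Dnaja2 (adjusted p = 0.193), and without the second they were -1.80 and -1.75. Dnaja2 also lost its call without the first or the second siNeg library (adjusted p = 0.0763 and 0.0755). The annotated end of Dnaja1 overlaps Smu1 on the opposite strand, and no source used here says whether the counting used strand. Dnaja4, the remaining member of the class, had 1.74 and 1.99 CPM in siTfap4, against 0.83 and 0.67 CPM in siNeg, and did not pass (adjusted p = 0.149 by edgeR).

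Dnajb1 encodes the main stress-inducible J-domain partner of cytosolic Hsp70 and was the only chaperone gene that rose. The gene lies at chr8:83608193-83612653 on the plus strand (ENSMUSG00000005483). Dnajb1 had 135 and 89.7 CPM in siTfap4, 65.2 and 72.5 CPM in siWiz, 52.5 and 54.0 CPM in siZic2, and 49.1 and 74.1 CPM in siNeg. Both siTfap4 libraries were above the 6 others. The rise was 1.82-fold (log2 fold change 0.87 ± 0.27 SE, adjusted p = 0.0424 by edgeR), close to the threshold. The call was lost without the first siTfap4 library (log2 fold change 0.53, adjusted p = 0.319), without the first siNeg library (0.62, adjusted p = 0.255), without the second siWiz library (adjusted p = 0.0544) and without either siZic2 library (adjusted p = 0.0674 and 0.0668). The other 10 tested DnajB genes did not pass. Among them, Dnajb3 has an annotated end that overlaps Gm20528 on the same strand. Dnajb3 had 3.47 and 4.34 CPM in siTfap4, against 0.83 and 1.92 CPM in siNeg (log2 fold change 1.51, adjusted p = 0.0628 by edgeR), and Dnajb9, an endoplasmic reticulum protein that restrains the stress sensor Ire1, had 4.46 and 7.504 CPM, against 11.3 and 10.9 CPM (adjusted p = 0.0999 by edgeR).

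In the DnajC class, whose members mostly have specialised tasks, 2 of 27 tested genes fell and 25 did not pass. That is 7.41% lower, against 11.7% of all tested genes. Dnajc6 encodes auxilin, which recruits Hsc70, the product of Hspa8, to strip clathrin from vesicles, and lies at chr4:101496648-101642799 on the plus strand (ENSMUSG00000028528). Dnajc6 had 4.71 and 3.87 CPM in siTfap4, 23.5 and 13.7 CPM in siWiz, 27.1 and 21.2 CPM in siZic2, and 27.8 and 17.1 CPM in siNeg. Both siTfap4 libraries lay below all the others, and the fall was 5.23-fold (log2 fold change -2.39 ± 0.36 SE, adjusted p = 0.00139 by edgeR).

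Dnajc19 encodes a subunit of the motor that pulls proteins through the inner mitochondrial membrane (chr3:34056020-34081321, minus strand, ENSMUSG00000027679). Dnajc19 had 9.05 and 18.1 CPM in siTfap4, 49.8 and 27.3 CPM in siWiz, 39.2 and 47.2 CPM in siZic2, and 29.8 and 38.1 CPM in siNeg. The fall was 2.498-fold (log2 fold change -1.32 ± 0.35 SE, adjusted p = 0.0247 by edgeR). Its call was lost without the first siTfap4 library (-0.92, adjusted p = 0.202), without the first siNeg library (adjusted p = 0.0568) and without the second siNeg library (adjusted p = 0.0846), and the log2 fold change was -1.92 without the second siTfap4 library. The end of Dnajc19 overlaps Fxr1 on the opposite strand. Dnaja3 and Dnajc19 make 2 of the 5 genes assigned here to mitochondria. The other 3, Dnajc11, Dnajc15 and Dnajc30, did not pass and had log2 fold changes of 0.53, 0.63 and 0.47. None of the 10 genes assigned to the endoplasmic reticulum passed, and 1 had an unadjusted p under 0.05. The assignment may leave out genes of either compartment, so these counts hold for the assigned genes alone.

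**Figure D3:**
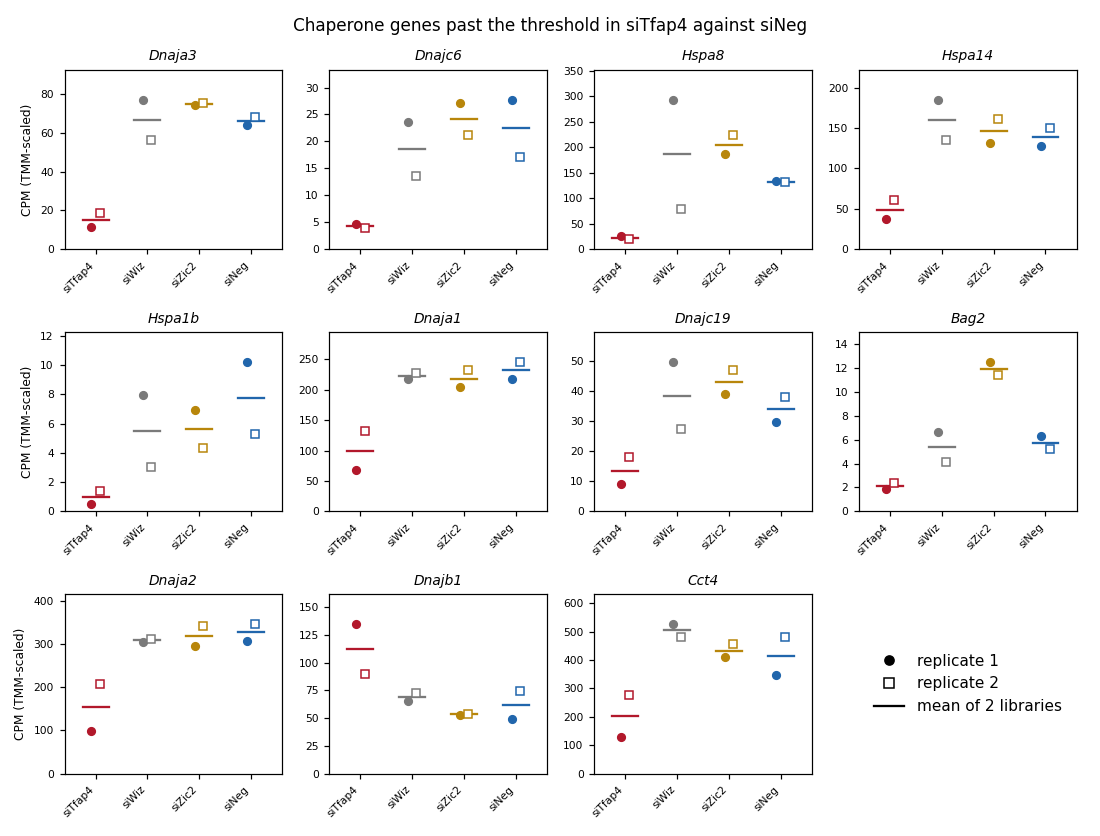
CPM in each library of the 11 chaperone genes that passed in siTfap4 against siNeg, with 1 panel a gene; filled circles are replicate 1, open squares replicate 2 and short lines the mean of 2 libraries. The siTfap4 points lie below the siNeg points in 10 panels and above them in the panel of Dnajb1.

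The CCT chaperonin is a double ring in which each ring holds a different protein at every place, so its subunits are usually made in matched amounts. In siTfap4 Cct4 fell and the other 6 tested genes did not pass (14.3% lower, against 11.7% of all tested genes). Differences between the subunits were not tested. Cct4 (chr11:22990519-23003780, plus strand, ENSMUSG00000007739) had 127 and 277 CPM in siTfap4, 528 and 482 CPM in siWiz, 412 and 456 CPM in siZic2, and 347 and 481 CPM in siNeg. Cct4 fell 2.05-fold (log2 fold change -1.03 ± 0.32 SE, adjusted p = 0.0428 by edgeR). The call was lost in 5 of the 8 fits that each left out 1 library: without the first siTfap4 library (log2 fold change -0.59, adjusted p = 0.286), the first siZic2 library (adjusted p = 0.0626), the second siZic2 library (0.0610), the first siNeg library (0.0655) and the second siNeg library (0.161). Without the second siTfap4 library the log2 fold change was -1.72.

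Cct2 was the next lower gene, with 259 and 495 CPM in siTfap4, 764 and 686 CPM in siWiz, 660 and 710 CPM in siZic2, and 609 and 765 CPM in siNeg (log2 fold change -0.86, adjusted p = 0.0582 by edgeR). Cct5 lay on the other side, with 550 and 507 CPM in siTfap4, 355 and 418 CPM in siWiz, 306 and 366 CPM in siZic2, and 304 and 397 CPM in siNeg (log2 fold change 0.59, 95% confidence interval 0.08 to 1.10, adjusted p = 0.103 by edgeR). Neither Cct2 nor Cct5 passed over all genes, and Cct7, Cct8 and Cct6a did not pass either. Tcp1, which encodes the first subunit, had 306 and 315 CPM in siTfap4, against 245 and 360 CPM in siNeg. Cct3, Cct7 and Cct8 had log2 fold changes of 0.32, 0.28 and 0.24. Cct6a, left out by its gene type in the annotation, had 327 and 476 CPM in siTfap4, against 497 and 640 CPM in siNeg (log2 fold change -0.50 ± 0.25 SE, adjusted p = 0.189 by edgeR). The ends of Cct8 and Tcp1 overlap Usp16 and Acat3 on the opposite strand.

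**Figure D4:**
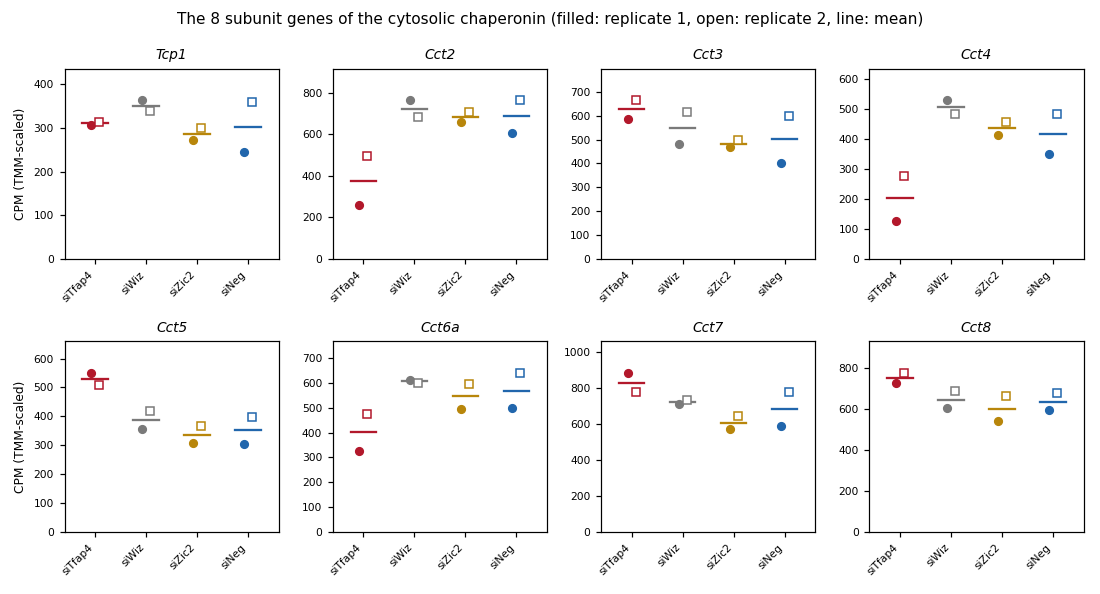
CPM of each cytosolic chaperonin subunit gene in the 8 libraries (filled circle replicate 1, open square replicate 2, line mean), with Cct6a shown although the rule left it out. Cct4 and Cct2 are lowest in the siTfap4 libraries, at 127 and 277 CPM and at 259 and 495 CPM, while Cct5 is highest there, at 550 and 507 CPM.

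The Bag proteins bind the ATPase domain of Hsp70. Of the 6 Bag genes, 1 fell in siTfap4 and 5 did not pass (16.7% lower, against 11.7% of all tested genes). Bag2 encodes an inhibitor of the chaperone-linked ubiquitin ligase CHIP and lies at chr1:33745484-33757795 on the minus strand (ENSMUSG00000042215). Bag2 had 1.86 and 2.34 CPM in siTfap4, 6.69 and 4.11 CPM in siWiz, 12.5 and 11.4 CPM in siZic2, and 6.32 and 5.19 CPM in siNeg. The siZic2 libraries were the highest and the siTfap4 libraries the lowest. Against siNeg the siTfap4 level was 2.73-fold lower (log2 fold change -1.45 ± 0.39 SE, adjusted p = 0.0250 by edgeR). That call was lost without the first siTfap4 library (adjusted p = 0.163) and without the first siNeg library (adjusted p = 0.127). Bag3, a stress-inducible member that guides clients to autophagy, had 20.6 and 20.3 CPM in siTfap4, against 24.5 and 30.2 CPM in siNeg (log2 fold change -0.42, 95% confidence interval -0.93 to 0.09, adjusted p = 0.242 by edgeR). Bag1 had 90.9 and 100 CPM in siTfap4, against 58.4 and 81.9 CPM in siNeg, and did not pass (adjusted p = 0.198 by edgeR).

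Base composition moved with these calls. The last 300 bases of the 10 genes that fell had a median GC content of 34.7%, against 41.7% for the 58 that did not pass and 43.3% for Dnajb1. Over protein-coding genes the medians were 39.3% for those that fell, 50% for those that rose and 42.7% for those that did not pass. Within siTfap4, 8 of the 10 fallen genes were lower in the first library than in the second, as were 84.0% of the 1709 genes of any kind that fell.

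Counts corrected for end GC content and transcript length gave another split between lower and higher genes. That correction called 17 chaperone genes, 7 lower and 10 higher, in place of 10 lower and 1 higher. It also moved the median of the 12483 protein-coding genes it was run on to 0.14, so changes in it are relative to that shift. Of these genes 23.9% passed, 11.4% lower and 12.5% higher. Without the correction 17.2% of tested protein-coding genes passed, 12.7% lower and 4.53% higher. A second form of the correction, which kept the scale of each library as it was without one, was added after the calls of the first had been seen. It called 14 chaperone genes, 11 lower and 3 higher. Of the 12483 protein-coding genes 20.2% passed in it, 14% lower and 6.17% higher, with their median at -0.03.

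In all 3 fits, 7 genes were called lower and 1 higher. They were Dnaja3, Dnajc6, Hspa8, Hspa14, Hspa1b, Dnaja1 and Cct4, and the higher gene was Dnajb1. All 3 fits counted Hspa8 without its pseudogenes, and the correction was not run on their sum, which did not fall. Bag2, Dnaja2 and Dnajc19 passed without the correction and in its second form, and had adjusted p of 0.0556, 0.0715 and 0.0587 in the first. Cct5 and Dnajb3 passed as higher in both corrected forms alone. Hspa5, Hsph1, Cct8, Dnajb14, Dnajc15, Dnajc21 and Dnajc25 passed as higher in the first form and in neither other fit, and Bag6 passed as lower in the second form alone. The annotated end of Dnajc25 overlaps Gm20503 on the same strand.

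**Figure D5:**
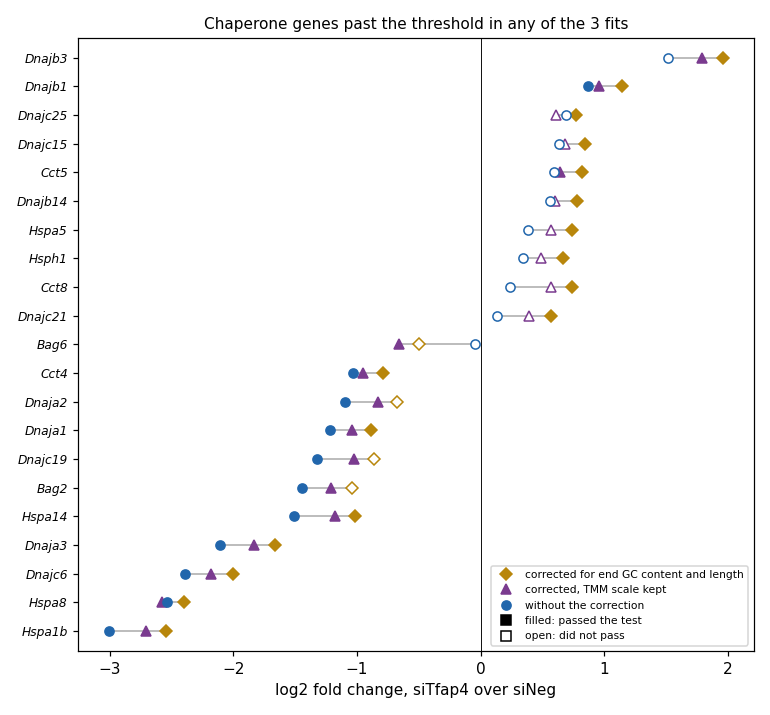
Log2 fold change of siTfap4 over siNeg for the 21 chaperone genes that passed in at least 1 of 3 fits: without a correction, corrected for end GC content and length, and corrected with the library scale kept. Filled symbols passed and open ones did not; the first correction moves nearly every gene to the right of its uncorrected value.

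In siWiz cells no chaperone gene passed against siNeg, as was the case for all tested genes (0% called). At an unadjusted p under 0.05 there were 1 chaperone gene and 266 genes in all, and DESeq2 called 0 chaperone genes and 1 gene in all. The chaperone gene with the smallest p was Dnajb3, at 2.94 and 4.11 CPM in siWiz, against 0.83 and 1.92 CPM in siNeg (log2 fold change 1.36, 95% confidence interval 0.26 to 2.47). Dnaja4 had a log2 fold change of 1.13 and Dnajc15 of 0.43. The stress-inducible genes Hspa1b, Dnajb1 and Hsph1 overlapped between siWiz and siNeg.

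In siZic2 cells no chaperone gene passed either, with 0% of all genes called. At an unadjusted p under 0.05 there were 1 chaperone gene and 86 genes in all, and DESeq2 called 0 of either. That chaperone gene was Bag2, at 12.5 and 11.4 CPM in siZic2, against 6.32 and 5.19 CPM in siNeg (log2 fold change 1.06, 95% confidence interval 0.32 to 1.79). Dnajc24 and Hspa8 came next, with log2 fold changes of 0.70 and 0.63. The Hspa8 value leaves out its pseudogenes. Counted with them, Hspa8 had a log2 fold change of 0.02 in siZic2 against siNeg (95% confidence interval -0.48 to 0.53).

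The siTfap4 libraries were also set against the other siPOOLs; these comparisons share the siTfap4 libraries with the one above, and so are not independent of it. Against siWiz, 11 chaperone genes were lower and 0 higher, 15.9% of those tested, with 15.1% of all genes called, 10.4% lower and 4.66% higher. These were the 10 genes lower against siNeg, with Hspa8 counted without its pseudogenes, and Cct2 (log2 fold change -0.94, adjusted p = 0.0446 by edgeR). Against siZic2, 13 were lower and 1 was higher, 20.3% of those tested, with 23.1% of all genes called, 14.7% lower and 8.41% higher. The list again held those 10 and Cct2 (-0.86, adjusted p = 0.0466 by edgeR), and added Dnajc14 (-1.003) and Dnajc24 (-1.62), with Dnajb1 higher (1.08, adjusted p = 0.0128 by edgeR). The annotated end of Dnajc14 overlaps Sarnp on the same strand. The count against siWiz was 4 without the first siTfap4 library and 4 without the first siWiz library. The count against siZic2 was 5 without the first siTfap4 library, 9 without the first siZic2 library and 7 without the second. Bag2 had its largest difference against siZic2, a log2 fold change of -2.50 (adjusted p = 0.000943 by edgeR). Counted with its pseudogenes, Hspa8 was not lower in either comparison. Its log2 fold change was then 0.31 against siWiz (adjusted p = 0.395 by edgeR) and 0.14 against siZic2 (adjusted p = 0.702 by edgeR).

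Further cytosolic cochaperones and folding factors, many of which serve Hsp70 and Hsp90, lay outside the name rule. Of 21 tested genes of this kind, 4 rose in siTfap4 against siNeg, 1 fell and 16 did not pass, with a median log2 fold change of 0.24. That is 23.8% called, 19% higher and 4.76% lower, against 15.9%, 4.24% and 11.7% of all tested genes. This list and the lists below were chosen with earlier results of these data known. Their shares therefore describe the chosen genes alone, and a share above that of all genes is not evidence of enrichment. Cdc37, which brings kinases to Hsp90, had 267 and 210 CPM in siTfap4, against 126 and 149 CPM in siNeg (log2 fold change 0.80, adjusted p = 0.0322 by edgeR). Sgta and Hspbp1 rose as well, with log2 fold changes of 0.88 and 0.92. Fkbp5, an Hsp90-bound prolyl isomerase of steroid receptor complexes, had 22.1 and 51.4 CPM in siTfap4, against 132 and 116 CPM in siNeg (-1.75, adjusted p = 0.00495 by edgeR). Stip1, which bridges Hsp70 and Hsp90, had 485 and 340 CPM in siTfap4, against 217 and 278 CPM in siNeg, and did not pass (adjusted p = 0.0570 by edgeR). These lists, like the chaperone genes, had 0 genes called in siWiz and siZic2, and they were not rerun with libraries left out or with the correction for base composition.

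Of 14 genes that assist the chaperonin, 1 rose and 3 fell, with a median log2 fold change of 0.12. That is 28.6% called, against 15.9% of all tested genes (4.24% higher and 11.7% lower). Pdcl3, a phosducin-like protein that works with CCT, had 1.98 and 7.27 CPM in siTfap4, against 31.8 and 24.6 CPM in siNeg (log2 fold change -2.60, adjusted p = 0.00254 by edgeR). Pdcl and the tubulin folding cofactor Tbce fell (-1.03 and -0.97), while the tubulin folding cofactor Tbcd rose (0.93).

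Of 10 tested genes listed as heat shock factors and small heat shock or stress-induced genes, 1 rose and 3 fell, with a median of 0.07. The 3 include Hspb11, listed by its name and not by a known heat shock role, with 1 and 3 reads in siTfap4 against 59 and 49 in siNeg. That is 40% called, against 15.9% of all tested genes (4.24% higher and 11.7% lower). Hsf1, the main factor of the heat shock response, had 7.69 and 10.8 CPM in siTfap4, against 25.2 and 19.99 CPM in siNeg (log2 fold change -1.29, adjusted p = 0.0118 by edgeR). Cryab, a small heat shock protein, fell (-1.39), and Hmox1, which degrades heme and answers oxidants, rose (1.14). Hspb1, the most abundant small heat shock gene named here, had 1324 and 1139 CPM in siTfap4, against 864 and 1201 CPM in siNeg, and these overlap.

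Of 11 mitochondrial chaperone genes, 2 rose and 2 fell, or 36.4% called, against 15.9% of all tested genes (4.24% higher and 11.7% lower). Lonp1, a matrix protease (-1.25), and Hscb, a J-domain protein of iron-sulfur cluster assembly (-1.57), fell, and the disaggregase gene Clpb (0.94) and Bcs1l (0.79) rose. The matrix chaperonin genes Hspd1 and Hspe1 did not pass. Of 20 genes for endoplasmic reticulum chaperones and the unfolded protein response, 4 rose and 2 fell, which is 20% higher and 10% lower, against 4.24% and 11.7% of all tested genes. Those that rose were Ddit3 (1.34), Pdia4 (1.27), Sil1 (1.12) and Atf4 (0.84). Manf, a secreted stress protein, had 14.3 and 35.8 CPM in siTfap4, against 117 and 102 CPM in siNeg (log2 fold change -2.13, adjusted p = 0.00200 by edgeR), and Xbp1, a transcription factor of this response, fell too (-1.30).

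Promoters were searched for the motifs of Hsf1 and Tfap4. RefSeq gave 250 upstream bases for 62 of the 76 chaperone genes and for 27025 genes in all, and both strands were read. The other 14 chaperone genes, Hspa8, Hsp90aa1, Hsp90ab1 and Cct4 among them, were not searched. The pair GAANNTTC or TTCNNGAA was in 12 of the 62, or 19.4%, against 14.5% of all genes. The full heat shock element, which contains the pair, was in 1, that of Dnajb6, or 1.61%, against 0.514% of all genes. The E-box CAGCTG, which Tfap4 binds, was also in 12, or 19.4%, against 14.7% of all genes. A match is a description of the sequence, and binding was not measured here.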

How the data were processed

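Read counts per gene in 8 QuantSeq 3′ mRNA libraries were deposited by the authors as 1 table of whole-number counts with Ensembl identifiers. The submitters' processing notes name Trim Galore and GRCm38; no source used here gives the aligner, the counter or its strand setting. Symbols came from GENCODE release M21 (GRCm38), which held 55240 of the 55421 identifiers. Columns were assigned to groups by their names. The members and gene lists were chosen with earlier results of these data known.

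Counts were filtered with filterByExpr, scaled by TMM and tested in edgeR 4.0.16 (R 4.3.3) with the quasi-likelihood test, all 8 libraries in 1 fit with 4 group means, and p-values were Benjamini-Hochberg adjusted over 14647 genes with a threshold of 0.05. The biological coefficient of variation was 22.2%. CPM are TMM-scaled, errors are ± SE of the fit or ± SD of 2 libraries, and reads without molecular identifiers are not independent molecules. On simulated data for siTfap4 against siNeg, with 14283 genes run, the test recovered 20% of 2-fold and 70% of 4-fold changes. In that simulation 50 genes were changed at each fold and 95 were called, against 2330 called in the data. The adjusted p depends on how many genes change, so these shares do not give the recovery in the data. Named genes were those called with a mean of at least 5 CPM, a fixed set of reference genes, and the smallest p in siWiz and siZic2; others named were picked after their values were seen. DESeq2 1.42.0, RLE size factors, other filters, a minimum fold of 1.5, a replicate block, left-out libraries and corrections for GC content and length were alternatives. Planned protein features were not analysed here. A cochaperone gene counted in its list is not reported here by name.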

Additional observations from a re-analysis of the deposited data

How the results depend on the processing

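With 2 libraries a group, single libraries decided many calls. Leaving out 1 library in turn gave 4 to 17 called chaperone genes in siTfap4 against siNeg, in place of 11, and 504 to 3322 of all genes, in place of 2330; the first siTfap4 library gave the lowest counts of both when left out, and the first siNeg library gave 5 and 757. The same range was 4 to 16 against siWiz (11 with every library) and 5 to 19 against siZic2 (14 with every library), and it stayed at 0 in siWiz and siZic2 against siNeg. Dnaja3, Dnajc6, Hspa14 and Hspa8, the last counted without its pseudogenes, kept their call in all 8 of these fits.

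A minimum fold of 1.5 left 5 chaperone genes and 745 of all genes in siTfap4 against siNeg, 4 against siWiz and 7 against siZic2. The correction for GC content and length called 17 against siNeg and 22 against siZic2. The labels do not say that a replicate number marks a shared batch or day. Deviations of same-numbered libraries correlated at 0.13 to 0.33 except between siTfap4 and siWiz (-0.04), so a shared effect was not shown for every pair of groups and is not excluded; a replicate block called 22 against siZic2, and with the correction it called 24 against siNeg, 17 against siWiz and 25 against siZic2. Against siNeg, the first and second forms of the correction called 23.9% and 20.2% of protein-coding genes in siTfap4. No background share is given here for the other siTfap4 counts under the block or the correction. The same holds for the counts against siWiz and siZic2 with a minimum fold of 1.5 or with a library left out. These counts therefore do not set chaperone genes apart from other genes. Of all genes in siWiz against siNeg, 12 were called with no filter beyond 1 count, 1 by DESeq2 and 1 under the block with the correction.

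Directions turned for Hspa8 counted with its pseudogenes (0.16) and, among the uncalled genes fixed for naming, for Hspa1a, Hspa4, Hsp90b1 and Tcp1; other uncalled chaperone genes near 0, such as Bag5 and Dnajc3, also changed sign under the correction. Hspa1a gave 0.22 under the correction, 0.21 with the block added and 0.054 with the scale kept, and ran between -0.86 and 0.48 over the fits that left out 1 library. Hspa4 gave 0.0842 and 0.0838, and Hsp90b1 gave 0.14 and 0.14, under the correction without and with the block. Hsp90b1 ran between -0.42 and 0.0896 over the left-out libraries, and Tcp1 between -0.20, without the first siNeg library, and 0.33. The cause was not tested. Depth and 2 libraries a group limit what small changes can be seen. The simulated test missed most 2-fold ones, but far fewer genes were changed in it than were called here, so it does not give the recovery in these data.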
